A study of Mus musculus with 27 samples.

Results

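Ribosome biogenesis factors are the proteins that transcribe, modify, cut and package ribosomal RNA in the nucleolus. The set described here is a list of 34 such genes that was drawn up by name and matched by Ensembl identifier to the deposited tables of mouse liver. It was chosen with earlier results of these data known, so shares of members called, given beside those of all genes, are descriptions. All 34 were found among the 51826 gene identifiers of the tables, and all 34 passed the filter on low counts, which kept 16428 genes. By role, 3 of the members belong to RNA polymerase I and 5 to the small nucleolar ribonucleoproteins (snoRNPs). Another 6 are nucleolar scaffold proteins and regulators, 7 act in the small subunit processome, 5 in late small subunit maturation and 8 in large subunit assembly.

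The study sequenced RNA from the whole liver of each of 27 mice of the inbred strain BALB/c at 7 stages of a reproductive cycle, with 1 library per animal. Females were bred at 10 to 12 weeks of age, litters were evened in size, and pups were removed between days 10 and 14 of lactation to time the days that followed. The groups were age-matched nulliparous animals (NUL, 4 animals, titled NUL_220, NUL_221, NUL_226 and NUL_227), day 10 of lactation (LAC, 3 animals, LAC_200, LAC_213 and LAC_240), and days 2, 4, 6 and 8 of the involution that follows weaning. These last are ID2 (3 animals, ID2_224, ID2_31 and ID2_39), ID4 (4 animals, ID4_13, ID4_15, ID4_211 and ID4_215), ID6 (6 animals) and ID8 (3 animals, ID8_101b, ID8_14 and ID8_98b). The last group, regressed livers 4 weeks after weaning (REG), held 4 animals (REG_203, REG_214, REG_234 and REG_239). Values of single animals are listed in these orders, and ID6 is given by its range and median. The labels name no altered allele and no drug in any group, and no Cre or transgene. Livers were frozen and ground before RNA was extracted with Trizol.

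Building a ribosome begins when RNA polymerase I copies the repeated ribosomal RNA genes into a long precursor. SnoRNPs of the box C/D and box H/ACA classes methylate and pseudouridylate that precursor, the small subunit processome folds and cleaves it, and separate sets of assembly factors then carry the small and large subunits to the cytoplasm. Hepatocytes, which secrete most plasma proteins, hold many ribosomes, and genes of this pathway are known as targets of the transcription factor MYC.

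Summed expected counts ran from 41120650 to 75664540 per library. The hepatocyte markers were high in every library (summed CPM, counts scaled to a common library size, from 98836 to 234479), while 12 pancreatic acinar genes summed to 1836 CPM in ID2_31 and 144 CPM in ID4_15 against 9.85 to 44.8 CPM elsewhere. A clock score, the mean log2 CPM of 8 day-phase genes minus that of 6 night-phase genes, differed between stages and is given beside the results it moved with. All 3 ID8 animals, 2 of the 3 ID2 animals and 2 of the 4 ID4 animals carry title numbers under 200 and no animal of another group does. The labels do not say what the numbers stand for. These are bulk samples, in which fewer cells of a type and less RNA per cell cannot be told apart.

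Promoter sequences are shown for the member with the smallest joint p in 4 of the roles, because Nop56, Gnl3, Utp4 and Tsr1 were called in each of the 3 steps described below and their starts can be read side by side. Each is 250 bases of GRCm38.p6 from RefSeq, 5′ to 3′ on the gene's strand, from 220 bases before the annotated start to 30 bases after it. The windows are chr2:130274192-130274441 on the plus strand (Nop56), chr14:31019102-31019351 on the minus strand (Gnl3), chr8:106893420-106893669 on the plus strand (Utp4) and chr11:74897860-74898109 on the plus strand (Tsr1). Capitals mark CACGTG, the letters of the E-box that MYC and USF proteins are known to bind.
Nop56: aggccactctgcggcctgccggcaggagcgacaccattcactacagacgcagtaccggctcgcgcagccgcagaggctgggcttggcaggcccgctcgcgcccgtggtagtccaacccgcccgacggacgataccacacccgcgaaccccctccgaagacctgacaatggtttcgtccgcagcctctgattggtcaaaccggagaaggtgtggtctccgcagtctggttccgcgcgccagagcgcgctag
Gnl3: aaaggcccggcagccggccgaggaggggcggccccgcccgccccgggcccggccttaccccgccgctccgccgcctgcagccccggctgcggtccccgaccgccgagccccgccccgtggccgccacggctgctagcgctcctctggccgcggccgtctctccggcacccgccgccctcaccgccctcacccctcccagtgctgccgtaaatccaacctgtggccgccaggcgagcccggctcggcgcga
Utp4: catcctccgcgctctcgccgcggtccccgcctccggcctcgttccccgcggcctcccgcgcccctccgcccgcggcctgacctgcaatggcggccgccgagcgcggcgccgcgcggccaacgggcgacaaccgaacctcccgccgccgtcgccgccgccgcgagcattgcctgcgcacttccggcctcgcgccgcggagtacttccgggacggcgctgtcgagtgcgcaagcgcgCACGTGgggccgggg
Tsr1: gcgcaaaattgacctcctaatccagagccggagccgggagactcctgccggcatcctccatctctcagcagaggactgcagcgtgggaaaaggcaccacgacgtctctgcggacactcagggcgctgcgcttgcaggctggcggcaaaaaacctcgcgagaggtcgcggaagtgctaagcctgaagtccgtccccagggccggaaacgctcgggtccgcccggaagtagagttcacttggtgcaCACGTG
Utp4 and Tsr1 each hold 1 CACGTG, and Nop56 and Gnl3 hold 0.

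Calls among the members came mainly in 3 steps of the cycle: many were lower at ID2 than at LAC, higher at ID6 than at ID4, and lower again at ID8 than at ID6. The last 2 of these steps share the 6 ID6 animals and are not separate observations. Nop56, a core protein of box C/D snoRNPs, fell by 0.77 on the log2 scale (SE 0.18) from LAC to ID2, rose by 0.70 (SE 0.14) from ID4 to ID6 and fell by 0.70 (SE 0.16) from ID6 to ID8. Gnl3, the nucleolar GTPase nucleostemin, fell by 0.94 (SE 0.20), rose by 0.72 (SE 0.16) and fell by 0.73 (SE 0.17) in the same 3 steps. Npm1, the nucleolar chaperone nucleophosmin, and Rcl1, a small subunit processing factor, followed other courses. Without LAC_213 the fall of Nop56 from LAC to ID2 was 0.49 and was not called (adjusted p = 0.0603), and that of Gnl3 was 0.60 (adjusted p = 0.0299). The call of Gnl3 from ID6 to ID8 was lost on leaving out any of the 3 ID8 animals. Without ID8_101b or without ID8_98b, 1 member was called in that step (all genes: 0.697% and 1.35%).

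Calls are genes with a Benjamini-Hochberg adjusted p under 0.05 in edgeR's quasi-likelihood test, adjusted over all 16428 genes. In the joint test of any difference among the 7 stages 19 of the 34 members were called, against 27% of all genes tested. From LAC to ID2, 13 members were called lower and 0 higher, where 16.1% of all genes tested were called in either direction and 7.64% were called lower. From ID4 to ID6, 13 were called higher and 1 lower (all genes: 8.53% in either direction, 3.89% higher). From ID6 to ID8, 7 were called lower and 0 higher (all genes: 4.12% in either direction, 1.75% lower). The median log2 fold change of the 34 members was -0.39, 0.34 and -0.32 in these 3 comparisons, beside medians of 0.02, 0.01 and 0.00 over all genes tested.

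**Figure D1:**
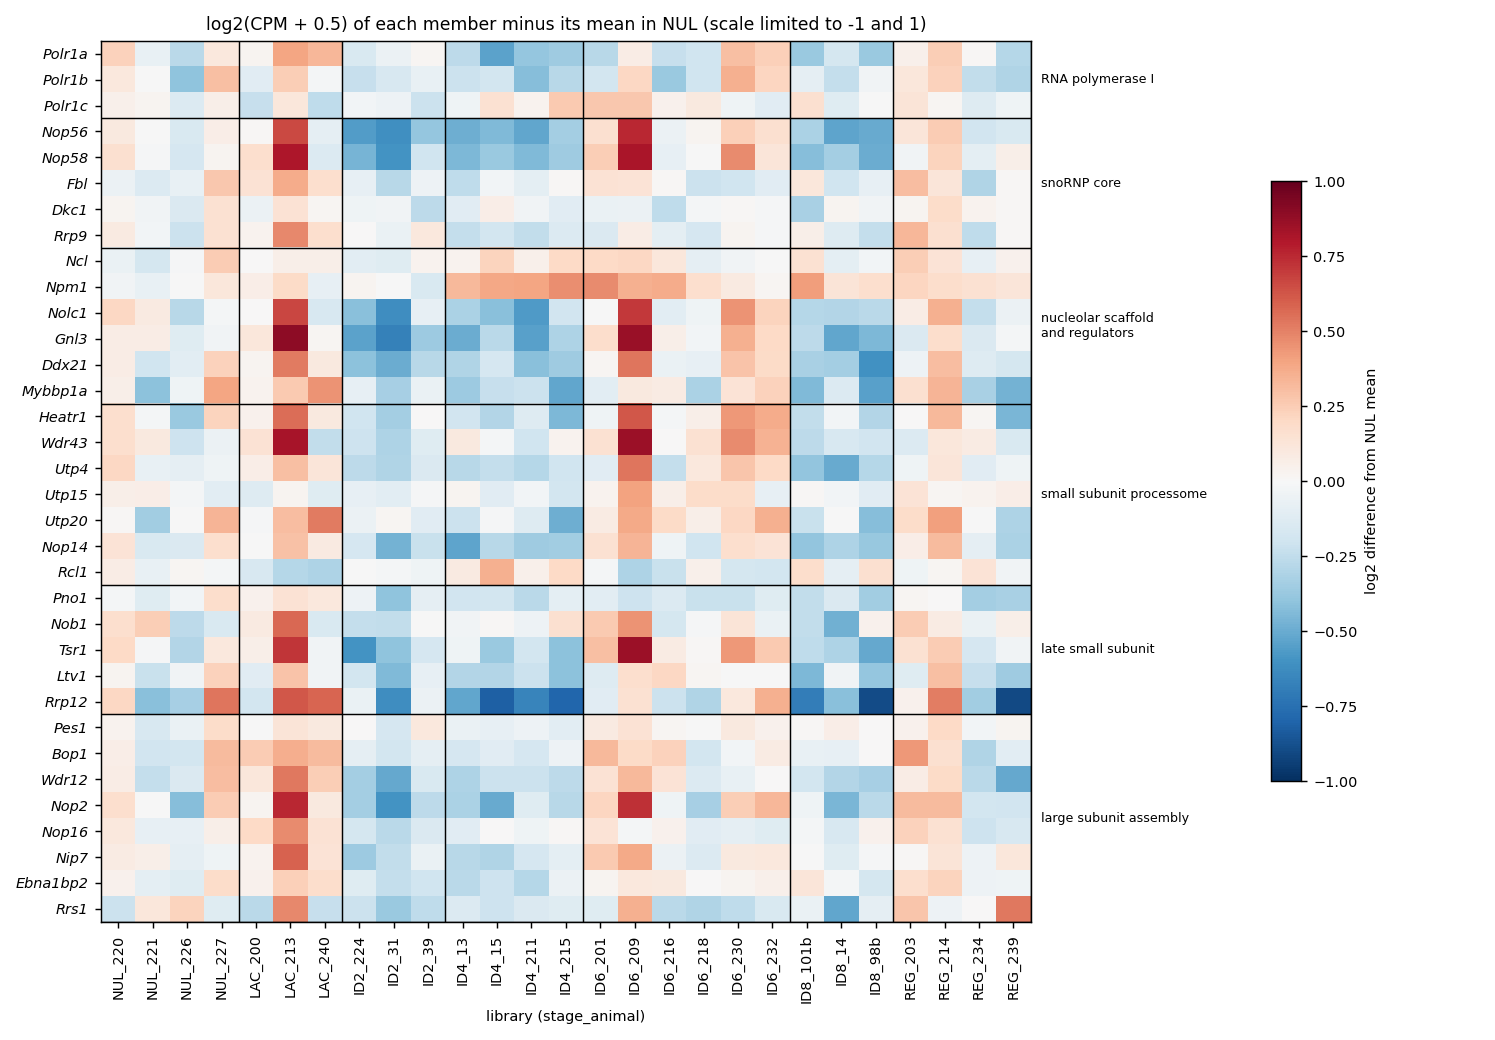
Each cell is log2(CPM + 0.5) of a member (rows, ordered by role) in a library (columns, ordered by stage) minus that member's mean in the 4 NUL libraries, with colours limited to -1 and 1. Columns of ID2, ID4 and ID8 are mostly blue, and LAC_213 and ID6_209 are the reddest columns of their groups.

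The animals of a group did not contribute equally. LAC_213 had the highest level of its group in 30 of the 34 members, and ID6_209 in 21 of the 34. The mean of the 34 members relative to NUL (log2(CPM + 0.5)) was 0.01, 0.40 and 0.06 in the LAC animals and -0.20, -0.30 and -0.12 in the ID2 animals, so these groups did not overlap. It was -0.20, -0.17, -0.21 and -0.18 in the ID4 animals, from -0.07 to 0.34 in ID6, and -0.16, -0.21 and -0.23 in the ID8 animals, so ID6 lay above both of its neighbours.

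RNA polymerase I synthesises the ribosomal RNA precursor. Polr1a (chr6:71909053-71984935), its largest subunit, was 21.6 ± 1.7 CPM at ID4 (SD, n = 4) and 28.4 ± 5.1 CPM at ID6 (n = 6), a rise of 0.39 on the log2 scale (SE 0.12, adjusted p = 0.0368). The animals overlapped narrowly, from 19.4 to 23.5 CPM at ID4 and from 23.2 to 35.0 CPM at ID6. Polr1b, its partner in the catalytic core, had an estimate of 0.32 (log2, SE 0.14) in the same comparison, with an adjusted p of 0.174. Polr1c, a subunit shared with RNA polymerase III, was not called in any comparison. Its log2 fold change from ID4 to ID6 was -0.01, with a 95% interval of -0.19 to 0.17.

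Among the snoRNP proteins, Nop56 and Nop58, which bind the guide RNA of box C/D particles, were called in all 3 steps. Nop56 (chr2:130274430-130279313) read 28.7, 26.6, 24.02 and 27.98 CPM in the NUL animals, 27.04, 42.6 and 25.1 in LAC, 18.01, 17.3 and 20.3 in ID2 and 18.9, 19.6, 18.5 and 21.04 in ID4. In ID6 its lowest, median and highest values were 25.6, 29.99 and 45.5 CPM, in ID8 it read 21.4, 18.4 and 18.7, and in REG 29.1, 32.04, 23.3 and 24.0. Every ID2, ID4 and ID8 animal lay below every animal of the other 4 groups. Its joint test over stages gave an adjusted p of 4.31e-04, the smallest of the members.

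Nop58 (chr1:59684971-59719044) read 30.4, 26.9, 24.1 and 27.6 CPM in NUL, 30.5, 47.99 and 24.6 in LAC, 19.6, 17.8 and 23.6 in ID2 and 19.8, 20.9, 19.9 and 21.2 in ID4. Its ID6 values ran from 25.7 to 48.3 CPM with a median of 30.9, its ID8 values were 20.1, 21.3 and 19.1, and its REG values 26.5, 31.7, 25.4 and 28.4. As with Nop56, the ID2, ID4 and ID8 animals were the 10 lowest. Nop58 fell by 0.76 (SE 0.20) from LAC to ID2, rose by 0.71 (SE 0.16) to ID6 from ID4 and fell by 0.73 (SE 0.18) to ID8. Its call from LAC to ID2 was lost without LAC_213 (log2 fold change -0.44, adjusted p = 0.134) and without ID2_31 (-0.67, adjusted p = 0.0581), and its call from ID6 to ID8 without ID8_101b (adjusted p = 0.101) and without ID8_98b (adjusted p = 0.0998). Both calls were also lost with the clock score or the title number range in the fit and in a fit of only the groups compared.

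Fbl, fibrillarin, the methyltransferase of the same box C/D particle, was not called in any comparison. It averaged 40.7 ± 3.5 CPM in LAC (n = 3) and 31.5 ± 2.6 in ID2 (n = 3), without overlap, and its difference of -0.37 (log2, SE 0.13) had an adjusted p of 0.0526. From ID4 to ID6 its log2 fold change was 0.06, with a 95% interval of -0.14 to 0.26. On the TPM scale, which divides by gene length, the log2 ratio of Nop56 to Fbl averaged -1.29 in ID2, -1.33 in ID4 and -1.33 in ID8, and -0.87 in NUL, -0.89 in LAC, -0.68 in ID6 and -0.98 in REG. These ratios are descriptions and were not tested. Counts of Fbl were not whole in any of the 27 libraries, which happens where reads are shared with another gene, so its level depends on how they were divided. Dkc1, the pseudouridine synthase of box H/ACA particles, and Rrp9, the protein of the U3 snoRNP, were not called in any comparison either.

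Of the 6 nucleolar scaffold proteins and regulators, 2 were called lower from LAC to ID2, 3 higher from ID4 to ID6 and 2 lower from ID6 to ID8. Of all genes tested 7.64%, 3.89% and 1.75% were called in these directions. All 6 log2 fold changes were negative in the first and last of these steps, and 4 were positive from ID4 to ID6. Gnl3 (chr14:31012433-31019152) read 21.7, 21.7, 18.8 and 20.1 CPM in NUL, 22.2, 38.5 and 20.8 in LAC, 14.02, 12.7 and 15.8 in ID2 and 14.4, 16.98, 13.9 and 16.5 in ID4. In ID6 it ran from 20.2 to 37.7 CPM with a median of 23.4, in ID8 it read 17.01, 14.2 and 14.9, and in REG 18.5, 23.3, 18.5 and 20.3. The ID2, ID4 and ID8 animals again lay below all others, the highest of them at 17.0 CPM. Its adjusted p was 0.00214 from LAC to ID2, 0.00568 from ID4 to ID6 and 0.0197 from ID6 to ID8. The last call was lost on leaving out any of the 3 ID8 animals (adjusted p = 0.0621 without ID8_101b, 0.0638 without ID8_14 and 0.0887 without ID8_98b), with the clock score or the title number range in the fit, and in a fit of only these groups.

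Ddx21 (chr10:62580251-62602281), an RNA helicase of the nucleolus, read 55.1, 45.4, 48.5 and 61.5 CPM in NUL, 53.1, 75.3 and 56.02 in LAC, 39.2, 36.9 and 43.1 in ID2 and 42.2, 46.4, 38.9 and 40.6 in ID4. Its ID6 values ran from 49.4 to 76.1 CPM with a median of 56.4, its ID8 values were 41.7, 41.1 and 34.1, and its REG values 50.5, 64.9, 47.8 and 46.3. ID6 lay above ID4 and ID8 without overlap. Nolc1, a chaperone of snoRNPs, rose from ID4 to ID6 by 0.62 (SE 0.17, adjusted p = 0.0255), and had log2 fold changes of -0.59 (adjusted p = 0.0610) from LAC to ID2 and -0.53 (adjusted p = 0.107) from ID6 to ID8.

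Npm1 (chr11:33152287-33163206) was the only member called from NUL to ID4, where it was higher by 0.39 (SE 0.09, adjusted p = 0.00884). It was also the only member called from ID2 to ID4, higher by 0.43 (SE 0.10, adjusted p = 0.0158), where 1.49% of all genes tested were called. It read 96.3, 94.04, 98.7 and 106.8 CPM in NUL, 103.3, 113.2 and 93.2 in LAC, 100.99, 98.4 and 89.04 in ID2 and 123.8, 129.04, 130.4 and 136.3 in ID4. ID6 ran from 100.5 to 137.0 CPM with a median of 118.9, ID8 read 132.5, 108.2 and 110.99, and REG 114.98, 111.5, 109.99 and 107.8. All 4 ID4 animals exceeded every NUL, LAC and ID2 animal, and ID6 and ID8 overlapped with ID4. The ID4 to ID2 call was lost without ID2_31, without ID2_39 and without ID4_215 (adjusted p up to 0.132) and with the clock score or the number of sequencing runs in the fit. Counts of Npm1 were not whole in 22 libraries. Ncl, nucleolin, the other abundant scaffold protein, was not called in any comparison, and its log2 fold change from ID4 to ID6 was -0.06 with a 95% interval of -0.22 to 0.11. Mybbp1a, a nucleolar protein that binds MYB, was not called in any comparison.

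**Figure D2:**
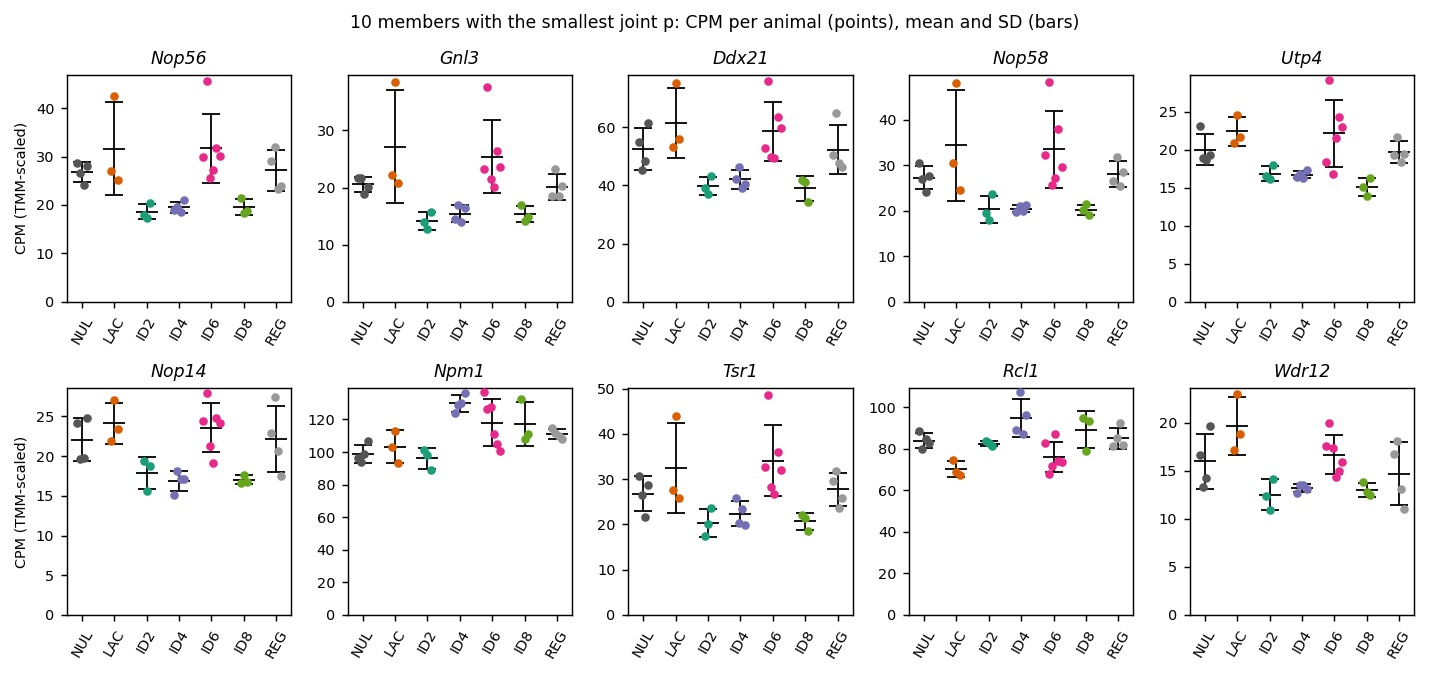
CPM of the 10 members with the smallest joint p (vertical axes, from 0) by stage (horizontal axes), with 1 point per animal and bars for the mean and SD. For Nop56, Nop58 and Gnl3 the ID2, ID4 and ID8 points lie below all others, while Npm1 has its highest mean in ID4 and Rcl1 its lowest means in LAC and ID6.

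The small subunit processome assembles on the precursor while it is being transcribed. Utp4 (chr8:106893636-106923088), part of its UtpA complex, read 23.1, 18.9, 18.7 and 19.4 CPM in NUL, 20.9, 24.6 and 21.7 in LAC, 16.5, 16.1 and 17.97 in ID2 and 16.4, 16.9, 16.3 and 17.3 in ID4. Its ID6 values ran from 16.8 to 29.2 CPM with a median of 22.2, its ID8 values were 15.04, 13.9 and 16.3, and its REG values 19.3, 21.7, 18.4 and 19.4. ID6 overlapped with ID4 and lay above ID8. Utp4 fell by 0.41 (SE 0.13) from LAC to ID2, rose by 0.41 (SE 0.11) from ID4 to ID6 and fell by 0.56 (SE 0.12) to ID8.

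Of the other UtpA members, Heatr1 rose from ID4 to ID6 by 0.53 (SE 0.15, adjusted p = 0.0302), from 20.3 ± 2.0 CPM (SD, n = 4) to 29.4 ± 5.8 (n = 6). Wdr43 had a log2 fold change of 0.38 there (adjusted p = 0.138), and Utp15, the member with the lowest level per length in NUL (3.04 ± 0.13 TPM, SD, n = 4), 0.22 (adjusted p = 0.111). Utp20, a scaffold of the precursor, rose by 0.43 (SE 0.13, adjusted p = 0.0441).

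Nop14 (chr5:34638536-34660148), another processome protein, read 24.1, 19.7, 19.8 and 24.7 CPM in NUL, 21.9, 27.03 and 23.4 in LAC, 19.4, 15.7 and 18.7 in ID2 and 15.1, 18.1, 17.1 and 17.2 in ID4. Its ID6 values ran from 19.1 to 27.96 CPM with a median of 24.3, its ID8 values were 16.6, 17.7 and 16.8, and its REG values 22.96, 27.5, 20.6 and 17.5. ID6 lay above ID4 and ID8 without overlap, while a REG animal at 17.5 CPM lay within the range of ID2 and ID4.

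Rcl1 (chr19:29101375-29143929), named for its likeness to RNA cyclases, went the other way. It read 88.5, 79.8, 84.8 and 82.6 CPM in NUL, 74.9, 68.8 and 67.5 in LAC, 83.8, 82.6 and 81.3 in ID2 and 89.3, 107.4, 87.0 and 96.2 in ID4. ID6 ran from 67.8 to 87.1 CPM with a median of 73.9, ID8 read 94.97, 78.97 and 93.6, and REG 81.2, 85.1, 92.4 and 81.7. All LAC animals lay below all NUL and ID2 animals, and Rcl1 was the single member called lower from ID4 to ID6 (log2 fold change -0.32, SE 0.07, adjusted p = 0.00786). That call was lost with the title number range in the fit and in limma on log2(TPM + 1), where the log2 fold change was -0.19. Its log2 fold change from NUL to LAC was -0.25 (SE 0.09, adjusted p = 0.0617).

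Among the 5 factors of late small subunit maturation, Tsr1 was the 1 called in each of the 3 steps, and the others were called in none of them. Tsr1 (chr11:74898071-74909342), a GTPase-like protein of cytoplasmic 40S precursors, read 30.6, 26.4, 21.6 and 28.6 CPM in NUL, 27.7, 43.98 and 25.9 in LAC, 17.4, 20.05 and 23.6 in ID2 and 25.8, 20.4, 23.3 and 19.9 in ID4. Its ID6 values ran from 26.7 to 48.6 CPM with a median of 32.4, its ID8 values were 22.2, 21.4 and 18.5, and its REG values 29.6, 31.8, 23.6 and 25.9. ID6 lay above ID4 and ID8 without overlap. It fell by 0.68 (SE 0.20) from LAC to ID2, rose by 0.61 (SE 0.16) from ID4 to ID6 and fell by 0.72 (SE 0.18) to ID8. The call from LAC to ID2 was lost without LAC_213 and with the clock score in the fit. The call from ID6 to ID8 was lost without ID8_101b (adjusted p = 0.0813), without ID8_98b (adjusted p = 0.121) and with the title number range in the fit. Counts of Tsr1 were not whole in any of the 27 libraries, so its level depends on how shared reads were divided. Of its 3837 exonic bases, 1240 overlap exons of Srr on the opposite strand, and the use of strand in counting is not given in the sources used here. Srr, which encodes serine racemase, had log2 fold changes of -0.30, -0.21 and 0.21 in the same 3 steps.

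Rrp12, an export factor, had the largest log2 fold change of any member from ID4 to ID6 (0.74, SE 0.24), but it was not called there (adjusted p = 0.0633). It averaged 9.05 ± 0.93 CPM in ID4 (SD, n = 4), 15.1 ± 2.7 in ID6 (n = 6) and 15.5 ± 5.1 in NUL (n = 4). Pno1, Nob1, the endonuclease that trims the end of 18S ribosomal RNA, and Ltv1 were not called in any comparison. The log2 fold change of Pno1 from ID4 to ID6 was 0.02, with a 95% interval of -0.14 to 0.18.

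Large subunit factors are 8 of the 34 members. They made up 6 of the 13 calls from LAC to ID2, and 2 of the 14 from ID4 to ID6 (all genes: 16.1% and 8.53% called). Wdr12 (chr1:60069785-60098645) and Bop1, which with Pes1 form the PeBoW complex, fell by 0.66 (SE 0.16) and 0.44 (SE 0.14) from LAC to ID2, while the estimate for Pes1 was -0.09 (SE 0.09) with an adjusted p of 0.524. Wdr12 read 16.7, 13.3, 14.3 and 19.7 CPM in NUL, 17.2, 23.1 and 18.9 in LAC, 12.4, 10.96 and 14.2 in ID2 and 12.7, 13.6, 13.6 and 13.1 in ID4. ID6 ran from 14.3 to 19.99 CPM with a median of 16.7, ID8 read 13.8, 12.8 and 12.5, and REG 16.7, 18.1, 13.1 and 10.99. The 3 LAC animals lay above all ID2, ID4 and ID8 animals, and NUL and REG overlapped with both sides.

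Nop2, a methyltransferase of 28S ribosomal RNA, fell by 0.74 (SE 0.23) from LAC to ID2, and Nop16 by 0.49 (SE 0.11). Nip7 and Ebna1bp2 fell by 0.52 (SE 0.13) and 0.34 (SE 0.09) there and rose by 0.34 (SE 0.10) and 0.26 (SE 0.08) from ID4 to ID6. Nop16 had a log2 fold change of 0.01 (SE 0.09) from ID4 to ID6. Rrs1, which brings the 5S particle into the large subunit, was not called in any comparison. From ID6 to ID8 the adjusted p of the 8 large subunit members ran from 0.134 (Wdr12) to 0.941 (Nop16), and 2, Wdr12 and Nop2, had an unadjusted p under 0.05 (20.5% of all genes did).

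**Figure D3:**
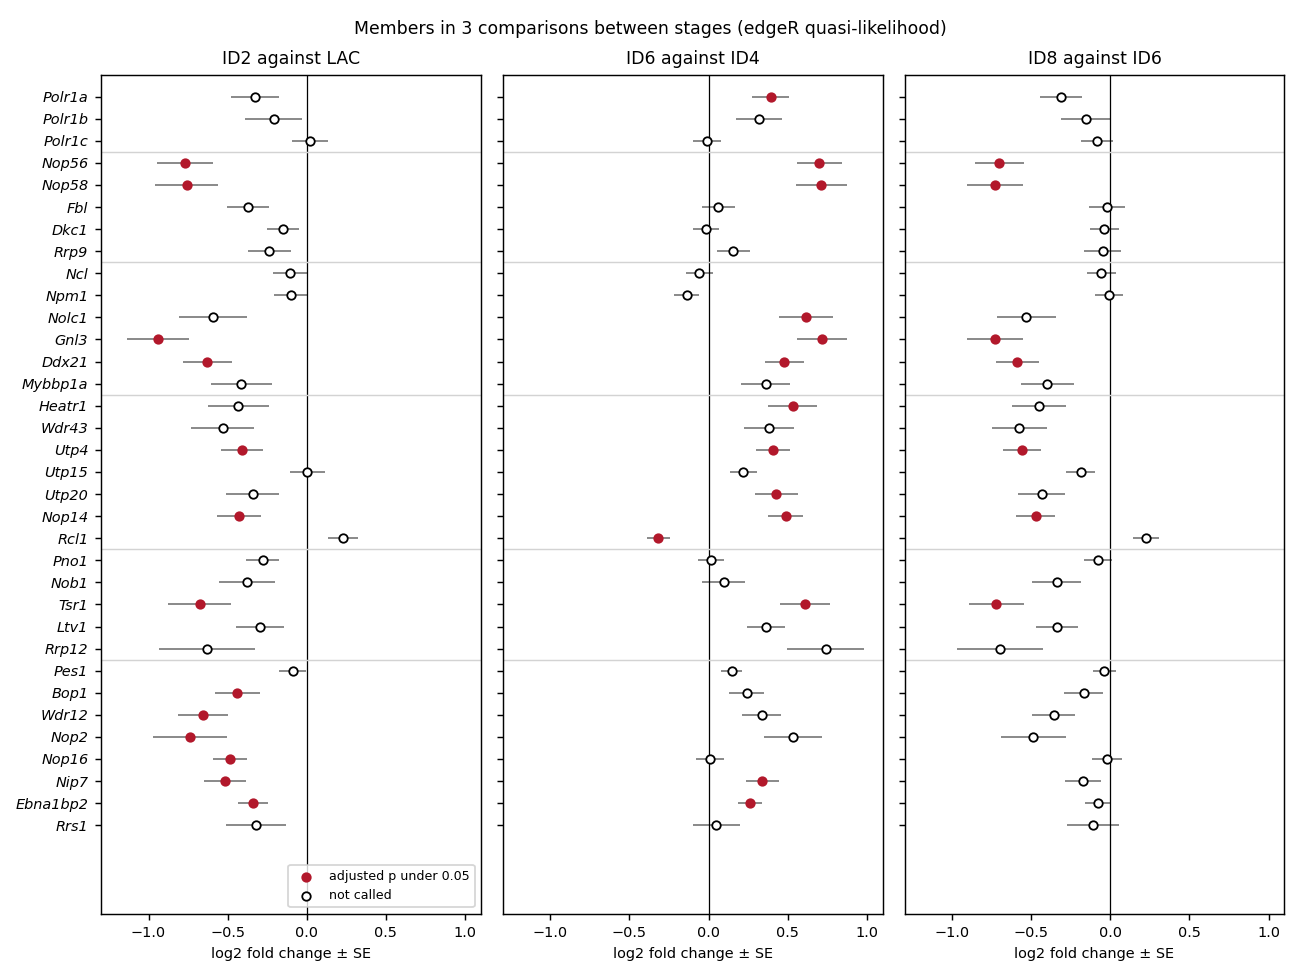
Log2 fold change ± SE (horizontal axes) of each member (rows, by role) from LAC to ID2, from ID4 to ID6 and from ID6 to ID8, with filled points for members called at an adjusted p under 0.05. Most points lie left of 0 in the outer panels and right of 0 in the middle panel, and Rcl1 lies on the other side in all 3.

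The calls from LAC to ID2 and from ID4 to ID6 come from separate animals and shared 9 members, 69.2% of the first list and 64.3% of the second. Over all genes tested these comparisons shared 647 calls, 24.4% of the first list and 46.2% of the second. The shared members were Nop56, Nop58, Gnl3, Ddx21, Utp4, Nop14, Tsr1, Nip7 and Ebna1bp2. All 7 members called from ID6 to ID8 were among the 13 called from LAC to ID2, as were 43.7% of all genes called from ID6 to ID8. Across the 34 members, which are not independent replicates and share 1 fit and the scaling of each library, the log2 fold changes from LAC to ID2 correlated with those from ID4 to ID6 at r = -0.82 (Spearman -0.79) and with those from ID6 to ID8 at r = 0.82 (Spearman 0.78). Over all genes tested these values were -0.38 (Spearman -0.34) and 0.20 (Spearman 0.16). The 13 members called nowhere were Dkc1, Fbl, Ltv1, Mybbp1a, Ncl, Nob1, Pes1, Pno1, Polr1b, Polr1c, Rrp9, Rrs1 and Utp15.

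Counts of calls depended on single animals and on the title numbers. Without LAC_213, 2 members were called from LAC to ID2 (Gnl3, -0.60, and Nop16, -0.37), without ID2_31 there were 6 and without ID2_224 there were 8, where 8.27%, 10.4% and 10.4% of all genes were called. From ID4 to ID6 the count was 7 without ID4_13, 8 without ID4_15, ID4_211 or ID6_209, and 9 without ID4_215 or ID6_230, with 4.5% of all genes called without ID4_13 and 5.2% to 6.55% in the other 5 of these fits. From ID6 to ID8 it was 1 without ID8_101b and 1 without ID8_98b (all genes: 0.697% and 1.35%). With the title number range in the fit the counts in the 3 steps were 6, 5 and 0, and 7.6%, 4.07% and 0.0365% of all genes were called. Only ID2 and ID4 hold both ranges. All ID8 animals are numbered under 200 and all ID6 animals 200 or over, so from ID6 to ID8 stage and number range cannot be told apart. Among animals numbered 200 or over, of which ID2 has 1 and ID4 has 2, no member was called from LAC to ID2 or from ID4 to ID6 (all genes: 2.27% and 1.6%), while the median log2 fold change of the 34 members was -0.38 from LAC to ID2 and 0.35 from ID4 to ID6.

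Other features of these livers differed between the same groups. The clock score ran from -2.95 to -1.29 in LAC and from -1.17 to 0.78 in ID2, from -2.42 to -1.17 in ID4, from -3.55 to -2.65 in ID6 and from -2.18 to -0.91 in ID8, so it did not overlap in any of the 3 steps. With the clock score in the fit, 12, 17 and 7 members were called in the 3 steps, of which 8, 13 and 5 were among those called without it. Of all genes, 9.7%, 8.72% and 5.03% were called in that fit. Nop58, Tsr1, Nip7, Nop2 and Utp4 were not called from LAC to ID2 in that fit, nor Nip7 from ID4 to ID6, nor Nop58 and Gnl3 from ID6 to ID8. Summed CPM of 6 erythroid genes ran from 407 to 1027 in ID4, from 53.1 to 264 in ID6 and from 19.9 to 35.0 in ID8, again without overlap. From LAC to ID2 several lists did not overlap in summed CPM. It ran from 170 to 231 in LAC and from 241 to 267 in ID2 for 8 leukocyte genes, from 167 to 189 and from 222 to 234.2 for 5 endothelial genes, from 157 to 170.3 and from 193 to 214.5 for 5 stellate genes, and from 21.4 to 27.9 and from 29.8 to 40.6 for 5 bile duct genes. The 12 pancreatic acinar genes overlapped, at 9.85 to 19.1 CPM in LAC and 10.3 to 1836 in ID2, where ID2_31 was the highest. The 14 cell cycle genes summed to 93.2 to 119 CPM in LAC and 68.7 to 92.3 in ID2, and 4 of them were called lower. The 10 hepatocyte markers summed to 191327 to 234479 CPM in LAC and 148057 to 161013 in ID2, but their mean log2 level relative to NUL went the other way, from 0.00 to 0.09 in LAC and from 0.14 to 0.28 in ID2, and 2 were called higher and 1 lower. The part of these markers and cell cycle genes in the results was not tested.

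Against NUL 1 member was called at 1 stage, and each stage is given in turn. From NUL to LAC 0 members were called by edgeR, where 11.2% of all genes tested were, with 6 of 34 (17.6%) at an unadjusted p under 0.05 beside 23.6% of all genes, 0 called by DESeq2 (all genes: 13.2%) and 1, Rcl1, by limma on TPM (8.67%). Their median log2 fold change was 0.23 and 31 of 34 were positive, but the median was 0.04 without LAC_213 and 0.12 in limma on TPM. Of 14 cell cycle genes 9 were called higher in the same comparison, with a median log2 fold change of 1.17. Of the markers of other cell types, 5 of 8 leukocyte genes were called lower (median -0.76), as were 2 of 5 stellate cell (median -0.61) and 2 of 5 bile duct genes (median -0.29). Their part in the members' values was not tested.

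At ID2, 0 members were called against NUL by edgeR (all genes: 3.24%), with 8 (23.5%) at an unadjusted p under 0.05 beside 16.9% of all genes, 1 (Nop56) called by DESeq2 (all genes: 5.27%) and 0 by limma (2.12%). Of the 34 log2 fold changes 33 were negative, with a median of -0.19 (-0.12 without NUL_227 and -0.29 with the clock score in the fit). In the same comparison 4 of 8 day-phase clock genes, 2 of 10 hepatocyte and 2 of 12 pancreatic acinar genes were called higher. Of 6 night-phase clock genes 2 were called lower, as were 2 of 8 leukocyte genes. Their part in the members' values was not tested.

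At ID4 the 1 call was Npm1 (all genes: 4.25%, higher 2.64%), while 29 of 34 log2 fold changes were negative with a median of -0.22, and 15 (44.1%) had an unadjusted p under 0.05 beside 18.6% of all genes. DESeq2 called 5 members there (all genes: 6.9%). Of the clock and cell type lists, 2 of 8 leukocyte genes (median 0.31) and 1 of the 8 day-phase clock genes were called higher, and 1 stellate, 1 bile duct and 1 adipocyte gene lower, and their part was not tested.

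At ID8 edgeR called 0 against NUL (all genes: 0.499%), with 12 (35.3%) at an unadjusted p under 0.05 beside 12.8% of all genes, 0 by DESeq2 (1.47%), 0 by limma (0.201%) and a median of -0.23. Of the 6 erythroid markers 4 were called lower there, with a median of -4.29, as were 2 of 14 cell cycle genes, and their part was not tested. At ID6 edgeR called 0 (all genes: 1.08%), with 4 (11.8%) at an unadjusted p under 0.05 beside 11.9% of all genes, 0 by DESeq2 (2.75%), 1 (Npm1) by limma (1.22%) and a median of 0.10. That median was 0.06 without ID6_201, 0.04 without ID6_209, 0.04 without NUL_221 and 0.04 without NUL_226. At ID6 5 of the 6 erythroid markers (median -2.40) and 1 of 14 cell cycle genes were called lower and 2 of 8 leukocyte genes higher (median 0.45), and their part was not tested.

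At REG, edgeR called 0 members against NUL (all genes: 0.0852%), 0 had an unadjusted p under 0.05 (all genes: 7.17%), and DESeq2 (0.42%) and limma (0.0487%) each called 0. The log2 fold changes lay between -0.16 (Pno1) and 0.20 (Rrs1), with a median of 0.03 that ran from -0.04 to 0.08 when 1 animal was left out, negative without NUL_226, REG_214 or NUL_221. For Nop56 the 95% interval of the log2 fold change was -0.28 to 0.31, and for Gnl3 -0.36 to 0.30. From ID8 to REG edgeR, DESeq2 and limma each called 0 members (all genes: 0.0487%, 0.457% and 0.11%), 9 (26.5%) had an unadjusted p under 0.05 beside 9.02% of all genes, and 31 of 34 were positive, with a median of 0.19 (0.29 without REG_239). In 10 members every REG animal lay above every ID8 animal, as in 3.9% of all genes tested. Of the 6 erythroid markers 4 were called higher in this comparison, with a median of 4.43, and in all 6 every REG animal lay above every ID8 animal. Their part in the members' values was not tested.

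Level per length, in TPM, spread widely among the members in NUL. Npm1 was highest at 113 ± 7 TPM (SD, n = 4), followed by Rcl1 at 65.95 ± 2.14, Ncl at 49.99 ± 7.26 and Fbl at 45.6 ± 6.4. Of the 34 members 11 were at 20 TPM or more and 12 below 10 TPM. Of the 7 members called from ID6 to ID8, Nop58 (28.1 ± 2.1 TPM) and Nop56 (24.95 ± 2.64) were the most abundant and Tsr1 (10.6 ± 1.5) the least.

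The rest of the pathway was read from the tested members of 4 further lists (18 genes of RNA polymerase I and its regulators, 12 of snoRNPs and RNA modification, 43 of the small and 52 of the large subunit) and 79 cytosolic ribosomal protein genes. From LAC to ID2, 24 of these other factors were called lower and 1 higher, which is 20% of them beside 16.1% of all genes, with a median log2 fold change of -0.23. From ID4 to ID6, 27 were called higher and 1 lower (median 0.19), which is 22.4% beside 8.53% of all genes. From ID6 to ID8, 13 were called lower and 0 higher (median -0.16), which is 10.4% beside 4.12%. From NUL to LAC the 1 call (0.8%, beside 11.2% of all genes) was Efl1, a GTPase that matures the large subunit, at 0.27 (SE 0.08).

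Among regulators of RNA polymerase I, Rrn3, the initiation factor TIF-IA, averaged 18.1 ± 4.9 CPM in LAC (SD, n = 3) and 12.0 ± 0.6 in ID2 (n = 3), a fall of 0.59 on the log2 scale (SE 0.17, adjusted p = 0.0162). Polr1e fell there by 0.55 (SE 0.18) and Taf1b rose by 0.54 (SE 0.15). Ubtf, the upstream binding factor, was not called in any comparison. Myc was called in the joint test over stages but in no single comparison, and ranged from 0.991 to 4.08 CPM in ID6, from 2.67 to 17.7 in ID8 and from 1.89 to 26.0 in REG. Its log2 fold change was 0.58 (SE 0.67, adjusted p = 0.670) from NUL to LAC and -0.66 (SE 0.73, adjusted p = 0.594) from LAC to ID2. From ID4 to ID6 it was 0.46 (SE 0.59, adjusted p = 0.711). From ID6 to ID8 it was 1.85 (SE 0.60, adjusted p = 0.0805), while 33 of the 34 members had a negative one. The part of Myc in the members' values was not tested.

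Of the snoRNP and modification factors Nhp2 fell by 0.39 (SE 0.10) from LAC to ID2, and Shq1 and Nat10 rose by 0.43 (SE 0.11) and 0.41 (SE 0.10) from ID4 to ID6. Small subunit factors Bysl and Nol8 fell by 0.72 (SE 0.18) and 0.53 (SE 0.15) from LAC to ID2, and Bysl and Utp14b rose by 0.61 (SE 0.14) and 1.14 (SE 0.22) from ID4 to ID6. Large subunit factors Mak16 and Ppan fell by 0.84 (SE 0.22) and 0.70 (SE 0.23) from LAC to ID2. Mdn1 and Urb1 rose by 0.79 (SE 0.21) and 0.75 (SE 0.15) from ID4 to ID6, and Wdr18 fell by 0.24 (SE 0.06).

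From NUL to ID4, 5 of the other factors were called lower and 1 higher, which is 4.8% of them beside 4.25% of all genes. Taf1d (-0.44, SE 0.12), Nhp2 (-0.39, SE 0.08), Utp14b (-1.40, SE 0.24) and Dhx37 (-0.39, SE 0.11) were among those lower, and Nop53 was higher (0.39, SE 0.09).

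The share of ribosomal protein genes called was not tested against that of all genes. From LAC to ID2, 5 of 79 (6.33%) were called lower and 0 higher (all genes: 16.1% in either direction, 7.64% lower), with Rps7 (-0.37, SE 0.09) and Rpl39 (-0.33, SE 0.11) among them, and the median log2 fold change was -0.18. From ID4 to ID6, 2 (2.53%) were called higher and 0 lower (all genes: 8.53% in either direction, 3.89% higher), namely Rpl12 (0.43, SE 0.10) and Rps12 (0.34, SE 0.11). EdgeR called 0 from ID6 to ID8 (all genes 4.12%), with 1 (1.27%) at an unadjusted p under 0.05 beside 20.5% of all genes and a median of 0.05. Rpl22 was called higher from NUL to ID4 (0.32, SE 0.08). From NUL to REG all 79 log2 fold changes were positive, between 0.09 and 0.32, with a median of 0.20 beside 0.03 for the 34 members. EdgeR called 0 of the 79, and 44 (55.7%) had an unadjusted p under 0.05 beside 7.17% of all genes. Counts of Bysl, Rps7 and Rpl12 were not whole in any library, nor were those of Mak16 and Rps12 in most, so these levels depend on how shared reads were divided.

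**Figure D4:**
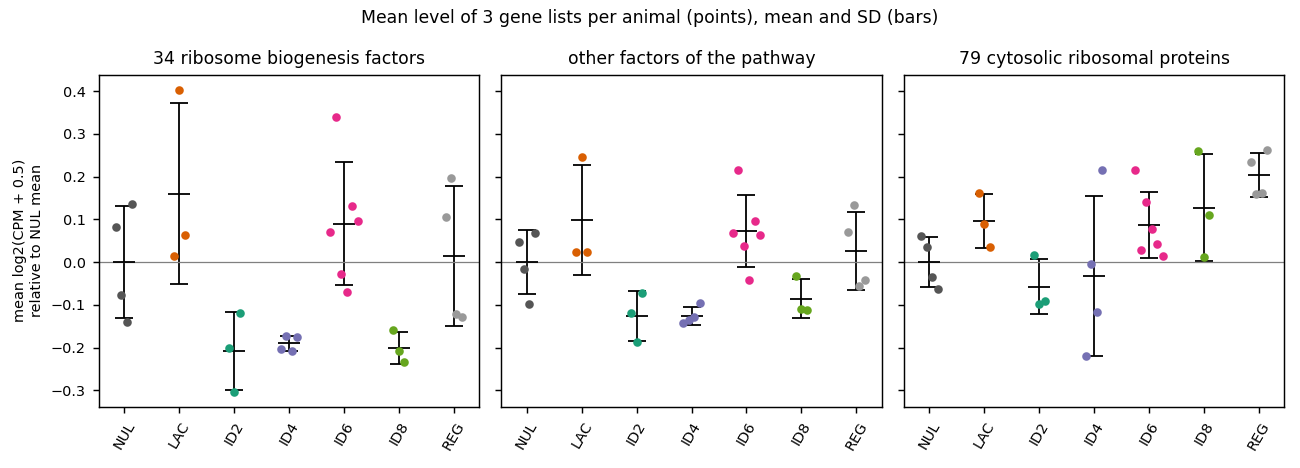
Mean log2(CPM + 0.5) of 3 gene lists relative to their NUL mean (vertical axis) by stage (horizontal axis), with 1 point per animal and bars for the mean and SD. The 34 members and the other factors are low in ID2, ID4 and ID8, while the mean of ribosomal proteins is highest in REG, where every animal lies between 0.16 and 0.26.

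The rule did not use sequence, so the promoters were searched for the E-box CACGTG, which reads the same on both strands, from 250 bases before to 50 bases after the start. Of the 34 members 29 had a RefSeq promoter, and 9 of these (31%) held CACGTG. Of all tested genes with a promoter 11.2% held it, as did 16.5% of the other pathway factors and 10.3% of the ribosomal protein genes. The 9 were Nop2, Utp4, Ltv1, Utp20, Pes1, Pno1, Mybbp1a, Tsr1 and Wdr43. Counting from the start, the first base of the motif lay 60 bases before the start in Nop2 and between 3 and 41 bases after it in the other 8, as in the Utp4 and Tsr1 sequences above. Members called from LAC to ID2 held it in 3 of 12 (25%) and those not called in 6 of 17 (35.3%). A match is a description of letters, not a bound site.

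Gene structure was looked at after the members' values were seen. In the GENCODE annotation 7 of the 34 (20.6%) contain snoRNA genes on their own strand, against 225 of 14141 protein-coding genes tested (1.59%). Nop56 contains 5 of them, among them Snord110 and Snord57, Nop58 contains 4, Gnl3, Ncl and Wdr43 contain 3 each, Tsr1 contains 2 and Dkc1 contains 1. From ID6 to ID8 Nop56, Nop58, Gnl3 and Tsr1, 4 of these 7, were called, and 3 of the 27 others (all genes: 4.12%). Median log2 fold changes were -0.70 and -0.19. From LAC to ID2 the counts were 4 of 7 and 9 of 27 (all genes: 16.1%), with medians of -0.68 and -0.37. From ID4 to ID6 they were 4 of 7 and 10 of 27 (all genes: 8.53%), with medians of 0.61 and 0.32. The same 4 genes made up the calls of the 7 in each step. None of these differences was tested.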

How the data were processed

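Gene-level tables of 27 liver RNA libraries, 1 per animal, were used as deposited. Each holds expected counts and TPM per gene, per the file headers. The submitters' processing notes name STAR 2.6.1a, RSEM 1.3.1 and mm10, with no role given. The authors' expected counts were rounded to integers, then tested with edgeR 4.0.16 in R 4.3.3 (filterByExpr by group, TMM scaling, robust quasi-likelihood, two-sided, 1 fit of all 7 groups). The authors' TPM gave levels compared between genes and, as log2(TPM + 1), an alternative test in limma 3.58.1. DESeq2 1.42.0 was a further alternative. P-values were adjusted by Benjamini-Hochberg over all 16428 genes tested. They measure the spread between animals, whose source beyond the group is not given in the sources used here. The fit was tested on simulated data. SE is the log2 fold change divided by the square root of F, and the common biological coefficient of variation was 0.190.

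The deepest library held 75664540 counts and the shallowest 41120650. None of the 42 pairs of libraries within a group agreed within sampling noise. Positions are those of GENCODE vM21 on GRCm38.

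The members and gene lists were chosen with earlier results of these data known. Values in every animal were given for the 10 members with the smallest joint p, and other pathway genes were named for the largest absolute log2 fold change among those called in each list and direction (up to 2), with Myc, Rrn3 and Ubtf always named. Alternatives were another normalization, no filter, DESeq2, limma on TPM, covariates (title number range, clock score, number of sequencing runs), only the groups compared, and each animal left out. A fit of animals numbered 200 or over was chosen after seeing the data. Of 129 further pathway symbols, 4 were not matched and all others were tested.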

Additional observations from a re-analysis of the deposited data

Results flagged for a closer look

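In 3 of the 40 groups of 4 to 6 animals checked for the 10 members with per-animal values, 1 animal stood apart from the rest of its group by Dixon's test, and chance marks about 1 in 20 groups. Nop56 was 45.5 CPM in ID6_209, while the other 5 animals of that group lay between 25.6 and 31.7. Gnl3 was 37.7 CPM in the same animal, against 20.2 to 26.4 in the others. Utp4 was 23.1 CPM in NUL_220, against 18.7 to 19.4 in the other 3 NUL animals.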

How the results depend on the processing

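None of the log2 fold changes recomputed for members named by size in a comparison changed sign under the alternatives run. List medians near 0 did: from NUL to REG the median of 0.03 was -0.04 without NUL_226, -0.03 without REG_214 and below 0 without NUL_221, and from ID2 to ID4 the median of 0.01 was -0.02 without ID2_31, with the number of runs and in limma on TPM. For members called from NUL to LAC (0), limma on TPM and the number of runs each gave 1 (all genes: 8.67% and 11.1%). Leaving out 1 animal gave 0 to 1 (1 without NUL_227, all genes: 10.2%). From NUL to ID2 (0) DESeq2 gave 1 (all genes: 5.27%) and a fit of only these groups 2 (3.35%). From NUL to ID6 (0) limma on TPM gave 1 (1.22%). From NUL to ID4 (1) DESeq2 gave 5 (all genes: 6.9%), the clock score 3 (4.74%) and limma on TPM 2 (3.15%). The number of runs gave 2 (4.09%) and only these groups 6 (4.87%), with 1 to 2 when 1 animal was left out (2.54% to 3.73%). From LAC to ID2 (13) limma on TPM gave 7 (all genes: 11.1%) and the title number range 6 (7.6%). Leaving out 1 animal gave 2 to 12 (8.27% to 12.8%). From ID2 to ID4 (1) the clock score and the number of runs gave 0 (all genes: 0.45% and 0.937%). Leaving out 1 animal gave 0 to 1 (0.583% to 1.18%). From ID4 to ID6 (14) no filter gave 9 (all genes: 3.97%) and the title number range 5 (4.07%). Leaving out 1 animal gave 7 to 15 (4.5% to 8.96%). From ID6 to ID8 (7) DESeq2 and limma on TPM each gave 11 (all genes: 7.31% and 5.22%) and the title number range 0 (0.0365%). Leaving out 1 animal gave 1 to 9 (0.697% to 5.06%). In the joint test (19) the title number range gave 5 of the 34 members, beside 19.7% of all genes. Leaving out 1 animal gave 15 to 22 (all genes: 22% to 27.5%). The list median from NUL to LAC ran from 0.04 to 0.31 over the animals left out. The cause of these changes was not tested. The fit of animals numbered 200 or over leaves 1 in ID2, assumed to vary like the other groups, and none in ID8, which gives no value there. No paired analysis was possible because no title number occurs in more than 1 group. With 3 to 6 animals per group, the 95% interval of Nop56 from NUL to REG ran from -0.28 to 0.31.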
